A study of Mus musculus with 12 samples.

Results

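The integrated stress response and the unfolded protein response were followed here through 35 genes, listed by name, among 47517 genes in the deposited table. By role they comprised 11 regulators and markers of the integrated stress response, 7 enzymes and 3 transporters of amino acid supply, 11 chaperones and folding enzymes of the endoplasmic reticulum (ER), and 3 genes of ER signalling and ER-associated degradation. All 35 were among the 17609 genes tested, and the smallest count of any of them in any library was 113. The cells were mouse embryonic fibroblasts from E13.5 embryos of the C57BL/6 strain, immortalised with SV40 large T antigen. All of them carried floxed Ssb1 (gene symbol Nabp2) and floxed Ssb2 (Nabp1), for proteins that bind single-stranded DNA. The genotype label of the Cre-positive cells reads Ssb1 Fl/F, where that of the Cre-negative cells reads Fl/Fl; the treatment protocol gives both as floxed on both alleles. Cells without Cre and cells with RosaCreERT2, a Cre recombinase that 4-hydroxytamoxifen (4-OHT) switches on, were each left untreated, given the vehicle ethanol, or given 4-OHT, the last 2 for 5 days. This gave 6 groups of 2 libraries each of ribosome-depleted total RNA. Only the Cre-positive cells given 4-OHT should lose both genes. The labels do not say how many embryos or clones gave the cells, when untreated cells were harvested, or whether a group's libraries are separate cultures. The p values therefore rest on the spread between libraries, which may be technical only.

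In the integrated stress response, several kinases phosphorylate the translation factor eIF2 under ER stress, amino acid shortage, double-stranded RNA or haem shortage. General translation falls, while translation of the transcription factor ATF4 rises, and ATF4 switches on genes for amino acid synthesis, uptake and feedback control. In the unfolded protein response, PERK is 1 of those kinases, while IRE1, through splicing of Xbp1 RNA, and ATF6 raise the chaperones and degradation factors of the ER. RNA counts per gene do not show eIF2 phosphorylation, ATF4 translation or Xbp1 splicing.

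Totals ran from 20201855 to 36367012 counts per library. RNA of both targeted genes was lower in the Cre-positive cells given 4-OHT, and a part of it remained. Counts per gene do not show whether the deletion was complete. Levels are given as CPM, counts scaled to the size of each library. Nabp1 stood at 3.40 and 3.96 with Cre and 4-OHT and at 14.5 and 15.9 with Cre and ethanol (log2 -2.05, SE 0.104, edgeR adjusted p = 7.51e-12). Nabp2 stood at 4.84 and 5.09 against 19.8 and 22.6 (log2 -2.10, SE 0.0942, adjusted p = 1.31e-12). Of 12 fibroblast markers, Thy1, Lum, Fap and Dcn were under 1 CPM in all libraries. The summed level of the 12 was 6471 to 7591 CPM in Cre-negative and 8468 to 9273 CPM in Cre-positive libraries. Summed adipocyte and cartilage markers were at 53.8 to 87.5 CPM in Cre-negative and 12.7 to 22.7 CPM in Cre-positive libraries, and the share of counts from mitochondrial genes was 1.47% to 2.22%. Summed neural markers were at 63.5 to 94.5 CPM and summed haematopoietic markers at 3.03 to 4.65 CPM. Summed skeletal muscle markers were at 2.44 to 8.55 CPM. Of the muscle markers Myf5 was at 0 in all 12 libraries, as was 1 haematopoietic marker. The part of these differences in the results below was not tested.

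The promoters of some of these genes carry elements by which the 2 pathways are read. Letters were searched on both strands of the 250 bases before each RefSeq start (GRCm38.p6), for 32 of the 35 genes. The ER stress response element, which is CCAAT, then 9 bases of any kind, then CCACG, binds ATF6 and XBP1 together with the CCAAT-binding factor NF-Y. It was found in 6 of 9 matched ER chaperone and folding genes, in no other member, and in 35 of 27025 genes of the table (0.13%). Its first letters are a CCAAT box, which by itself was found in 23 members and in 37.5% of genes. The promoters are shown because these 6 genes rose in the induced cells against ethanol, Hsp90b1 only just past the threshold. For Hsp90b1 the log2 fold change was 0.09 with Cre and 0.12 without Cre, where it did not pass by edgeR. The difference of these, -0.02, did not pass either. Against untreated cells Hsp90b1 (0.04) and Pdia6 (0.07) did not pass. The matched ER chaperone and folding genes without the element were Dnajb9, Pdia4 and Sdf2l1. Of these, Dnajb9 (log2 0.27) and Pdia4 (0.12) also rose, and Sdf2l1 (0.21) missed the threshold. Whether the element bears on the rise was not tested. Capitals mark the element, in either orientation, read in each gene's own direction.
Hspa5, chr2:34772020-34772048, plus strand: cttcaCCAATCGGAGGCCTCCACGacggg
Creld2, chr15:88819500-88819558, plus strand: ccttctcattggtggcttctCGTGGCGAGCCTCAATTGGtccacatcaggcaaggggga
Calr, chr8:84847055-84847113, minus strand: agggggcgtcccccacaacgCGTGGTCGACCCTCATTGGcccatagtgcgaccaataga
Dnajc3, chr14:118937807-118937865, plus strand: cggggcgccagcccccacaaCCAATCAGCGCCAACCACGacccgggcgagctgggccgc
Pdia6, chr12:17266471-17266529, plus strand: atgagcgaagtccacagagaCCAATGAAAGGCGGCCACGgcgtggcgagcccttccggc
Hsp90b1, chr10:86705618-86705676, minus strand: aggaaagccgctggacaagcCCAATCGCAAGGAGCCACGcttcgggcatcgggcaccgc
The element lay 47 to 65 bases before the start in Hspa5, where a GENCODE exon reaches further upstream and the flanks are kept short. Hsp90b1 held another copy nearer its start. Promoters of Manf, Hyou1 and Slc7a5 were not used here. A related element, which is ATTGG, then any 1 base, then CCACG, and whose first letters are a CCAAT box on the other strand, was found in Herpud1 among the members and in 10 genes of the table (0.037%).
Herpud1, chr8:94386357-94386407, plus strand: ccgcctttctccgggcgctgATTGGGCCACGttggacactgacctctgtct
The C/EBP-ATF response element, TGATGNAAN, at which ATF4 binds with a C/EBP partner, is shorter and was found in 7 members and in 3.89% of genes. It is shown for 4 of these 7 members.
Asns, chr6:7693219-7693237, minus strand: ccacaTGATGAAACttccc
Slc7a11, chr3:50443651-50443699, minus strand: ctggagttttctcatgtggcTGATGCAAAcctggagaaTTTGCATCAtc
Vldlr, chr19:27216814-27216832, plus strand: caataGTTGCATCAgcgct
Chac1, chr2:119351028-119351076, plus strand: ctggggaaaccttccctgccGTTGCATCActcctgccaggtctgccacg
The Slc7a11 window holds the element in both orientations. The windows of Asns and Vldlr lie in GENCODE exons and are kept short. The other members with this element were Nupr1, Pycr1 and Herpud1, where it lay apart from the element shown above. The searched bases of Atf4, Ddit3, Trib3 and further members held none of these elements. A match is a description of letters; binding was not measured here.

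As levels, in CPM per kilobase of exon averaged over the 12 libraries, the most abundant members were ER proteins: Calr (361.8), Hspa5 (264.4) and Hsp90b1 (202.9). Atf4 (153) and Psat1 (118) followed. The lowest were Slc7a11 (2.07), Sesn3 (2.62), Pycr1 (2.90), Vldlr (3.42) and Dnajb9 (3.61). The 35 genes together held 0.631% to 0.707% of all counts. The 2 libraries of a group lay close together, with a median SD of 2.43% of the mean and a largest of 16.4% (Sesn3, Cre-positive untreated).

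When Cre-positive cells were given 4-OHT, 9 of the 11 ER chaperone and folding genes rose against ethanol and 2 did not pass the test, with a median log2 fold change of 0.21. Over all 35 members 18 rose and 5 fell, with a median of 0.12. Among all genes tested 21.1% rose and 17.2% fell, and the median was 0.03. The rises of the ER genes were small, at most 0.35 on the log2 scale. The test was edgeR's 2-sided quasi-likelihood F test, with Benjamini-Hochberg adjustment over all 17609 genes, and a gene was said to rise or fall at an adjusted p under 0.05. In bulk RNA, fewer cells that express a gene and less RNA per cell cannot be told apart. The share of counts from mitochondrial genes was 1.83% to 1.92% in the induced libraries, 1.49% to 1.74% with ethanol and 1.47% to 1.48% untreated, and summed skeletal muscle markers were at 8.49 to 8.55, 6.23 to 6.60 and 3.93 to 4.01 CPM. Summed adipocyte and cartilage markers were at 20.5 to 22.7, 13.2 to 15.15 and 12.7 to 14.9 CPM, endothelial markers at 1.755 to 2.064, 0.884 to 0.905 and 0.708 to 0.885 CPM, and epithelial markers at 1.302 to 1.33, 0.663 to 1.04 and 0.747 to 0.8355 CPM. Against ethanol 1 of 1 tested muscle marker, 3 of 4 adipocyte and cartilage markers, 1 of 3 endothelial markers and 0 of 1 epithelial marker rose by edgeR. Of 10 tested fibroblast markers 4 rose and 2 fell, with log2 fold changes of -0.60 to 2.13 over the 10. Of 3 tested neural markers 1 rose and 1 fell, and of 2 tested haematopoietic markers 0 passed. Their part in the result was not tested.

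Hspa5 (chromosome 2, 34771970 to 34777547, GRCm38), which codes for BiP, the main Hsp70 chaperone of the ER lumen, stood at 1342 and 1376 CPM in the induced Cre-positive libraries, 1086 and 1062 in the ethanol pair and 1089 and 1064 in the untreated pair. Without Cre it stood at 1066 and 1034 untreated, 1054 and 1058 with ethanol and 1122 and 1062 with 4-OHT. Both induced libraries were above the other 10, which overlapped each other across groups. Hspa5 rose by 0.34 against ethanol (1.27-fold, SE 0.0365, adjusted p = 3.18e-07) and by 0.34 against untreated cells. The difference of the 4-OHT effects, Cre-positive minus Cre-negative, was 0.29 with ethanol as reference (95% interval 0.18 to 0.40) and 0.28 with untreated cells (0.17 to 0.39).

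Manf (chromosome 9, 106838312 to 106891979), a secreted ER stress-inducible protein, stood at 219.8 and 224 CPM in the induced libraries, 178 and 173 in the ethanol pair and 170 and 159.9 in the untreated pair. The Cre-negative libraries stood at 149 and 145 untreated, 156 and 161 with ethanol and 150 and 145 with 4-OHT, all below every induced library. The rise was 0.34 against ethanol (SE 0.0392, adjusted p = 8.23e-07) and 0.43 against untreated cells, and the differences were 0.44 and 0.42. GENCODE exons of Manf overlap those of Rbm15b by 14 bases on the same strand and those of Vprbp by 146 and of 4930524O07Rik by 166 on the opposite strand. The sources used here do not say whether counting used the strand. Rbm15b rose by 0.17 in the same comparison and Vprbp changed by 0.05 (edgeR adjusted p = 0.413), both less than Manf. 4930524O07Rik rose by 0.84 (edgeR adjusted p = 0.0412), more than Manf, at a mean of 0.655 CPM over the 12 libraries against 169 for Manf.

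Creld2 (chromosome 15, 88819646 to 88826683), a cysteine-rich ER protein, stood at 73.4 and 75.1 CPM in the induced libraries, 57.95 and 58.2 in the ethanol pair and 61.6 and 62.8 in the untreated pair. The Cre-negative libraries were at 68.4 and 65.5 untreated, 65.1 and 68.5 with ethanol and 60.6 and 63.6 with 4-OHT, so no Cre-negative library reached the induced level. It rose by 0.35 (SE 0.0456, adjusted p = 3.3e-06) against ethanol and 0.26 against untreated cells, with differences of 0.46 and 0.36. Dnajc3 (chromosome 14, 118937976 to 118981697), for the co-chaperone p58IPK, stood at 252 and 257 CPM when induced, 222 and 217 with ethanol and 226 and 225 untreated, and at 221 and 209, 212 and 212 and 207 and 213 in Cre-negative untreated, ethanol and 4-OHT libraries. The induced pair was again above the other 10. The rise was 0.21 (adjusted p = 0.000117), and the differences were 0.23 and 0.21; the second was lost without library 1 or 5 (adjusted p = 0.0875 and 0.062).

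Calr (chromosome 8, 84841850 to 84846934), for the lectin chaperone calreticulin, was at 1231 and 1268 CPM in the induced libraries, 1049 and 1042 with ethanol and 1160 and 1101 untreated. Its Cre-negative values were 1037 and 995 untreated, 852 and 901 with ethanol and 962 and 904 with 4-OHT. Both induced libraries were above the rest, and the 2 Cre genotypes did not overlap at any treatment. Calr rose by 0.26 against ethanol (adjusted p = 4.02e-05) and by 0.14 against untreated cells, the latter lost without library 8 or 12 (adjusted p = 0.173 and 0.0736). Its difference was 0.17 with ethanol as reference, which was lost without library 3, 4, 6, 10 or 12 (adjusted p = 0.0664 to 0.215), and 0.27 with untreated cells as reference.

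The protein disulphide isomerase genes Pdia6 (0.20) and Pdia4 (0.12) also rose against ethanol. So did Dnajb9 (0.27), for an Hsp40 co-chaperone, and Hsp90b1 (0.09), for GRP94. The last 2 were near the threshold (adjusted p = 0.0447 and 0.0423) and lost it in every alternative run, including without each of libraries 3, 4, 11 and 12 (adjusted p = 0.0937 to 0.228 and 0.107 to 0.204). Pdia4 lost it without library 4, 11 or 12 (adjusted p = 0.0512 to 0.0944). Sdf2l1, an ER stress-inducible partner of Hsp40 proteins, had a log2 fold change of 0.21 that missed the threshold (adjusted p = 0.0683). Hyou1, an ER nucleotide exchange factor and large Hsp70, had 0.00, with a 95% interval of -0.07 to 0.08. Against untreated cells 6 of the 11 rose and Sdf2l1 fell (all genes, 21% and 18.2%). In the Cre-positive cells, Sdf2l1 was at 20.8 and 16.7 CPM untreated, 14.5 and 13.01 with ethanol and 15.5 and 16.2 with 4-OHT, and its fall against untreated was lost without library 7, 11 or 12 (adjusted p = 0.0555 to 0.531).

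Without Cre, none of the 11 passed with 4-OHT against ethanol by edgeR, and their median was -0.02. At an unadjusted p under 0.05, 2 of them were higher and 2 lower, and DESeq2 called Hsp90b1 higher (adjusted p = 0.0242). In the difference of the 4-OHT effects with ethanol as reference, 7 of the 11 were higher and 4 did not pass, where 14.5% of all genes were higher and 13.8% lower. Of the 7, Pdia4, Pdia6 and Calr lost the call in at least 1 alternative. With untreated cells as reference 5 were higher and 6 did not pass, where 12% of all genes were higher and 11.7% lower. These 2 differences share the 4-OHT libraries, so they are not independent.

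**Figure D1:**
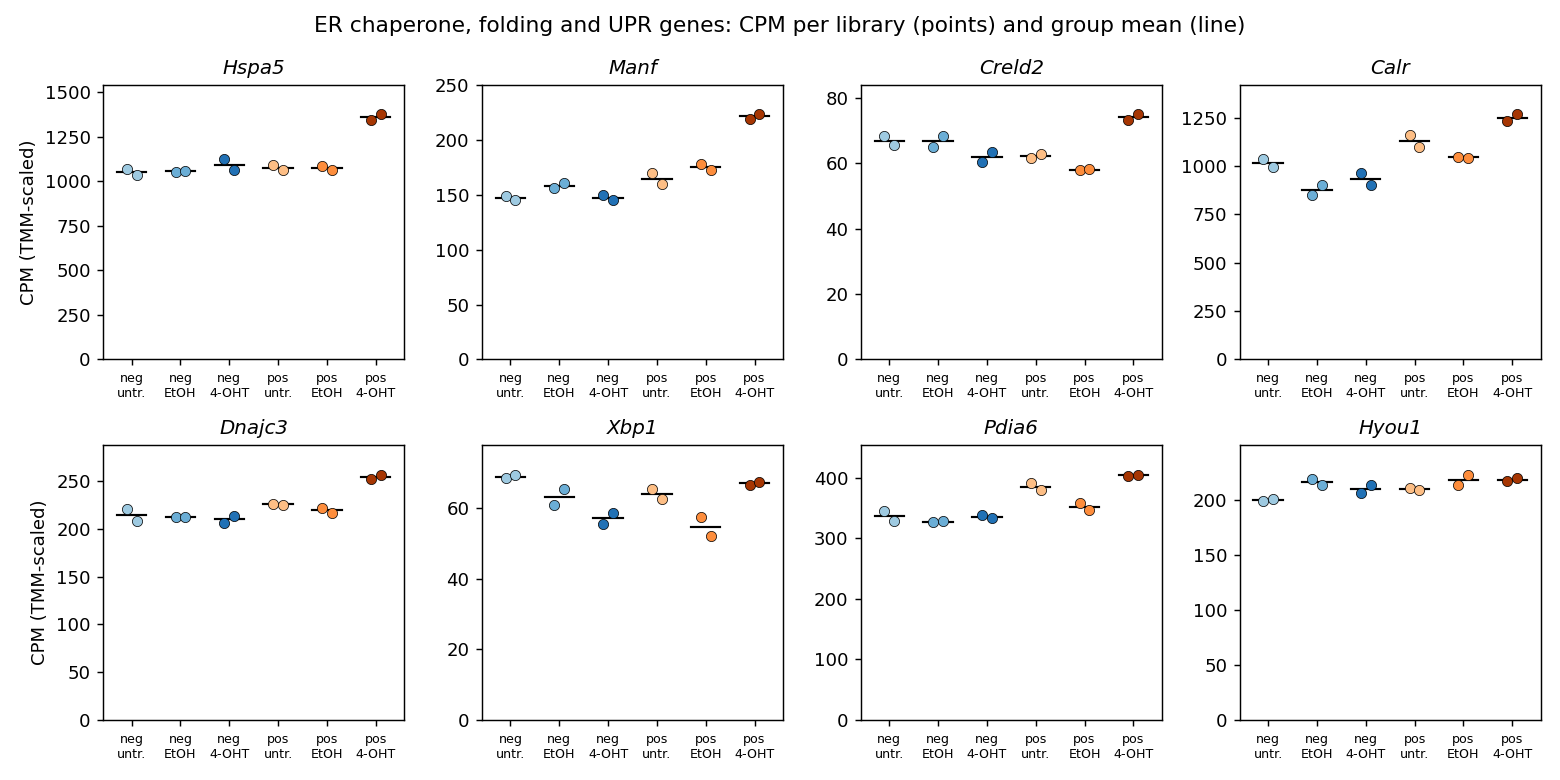
CPM of 8 ER and unfolded protein response genes, on a linear axis from 0, in each of the 12 libraries (points) with the mean of the 2 libraries of a group (line); neg and pos are Cre-negative and Cre-positive, untr. untreated, EtOH ethanol. The induced pair, at the right of each panel, is above all others for Hspa5, Manf, Creld2, Calr, Dnajc3 and Pdia6, and lies among them for Xbp1 and Hyou1.

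Of the 3 genes of ER signalling and degradation, Xbp1 rose in induced cells against ethanol and the other 2 did not pass the test. Xbp1 (chromosome 11, 5520659 to 5525893), for the transcription factor whose RNA IRE1 splices, stood at 66.8 and 67.4 CPM when induced, 57.6 and 52.2 with ethanol and 65.5 and 62.6 untreated. Cells without Cre had 68.6 and 69.6 untreated, 60.9 and 65.5 with ethanol and 55.7 and 58.7 with 4-OHT. The induced pair thus lay between the untreated libraries of the 2 genotypes, and every ethanol and Cre-negative 4-OHT library was lower. The log2 fold change was 0.29 against ethanol (SE 0.0524, adjusted p = 0.000157) and 0.07 against untreated cells, which did not pass (adjusted p = 0.353). The differences were 0.43 and 0.34, and both passed.

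Herpud1 (chromosome 8, 94386438 to 94395377), for a membrane protein of ER-associated degradation, was at 67.4 and 67.6 CPM when induced, 69.1 and 63.4 with ethanol and 84.2 and 79.4 untreated. It was at 79.7 and 79.4 in Cre-negative untreated, 99.8 and 97.7 in ethanol and 89.6 and 90.6 in 4-OHT libraries. Ethanol cultures were thus lower than untreated ones in Cre-positive cells (log2 -0.31) and higher in Cre-negative cells (0.31). Edem1 (chromosome 6, 108828641 to 108859356), for a lectin-like factor that directs misfolded glycoproteins to degradation, was at 131 and 124 CPM when induced, 132 and 123 with ethanol and 124 and 127 untreated, and at 104 and 110.4, 111 and 109 and 98.9 and 102 in the Cre-negative untreated, ethanol and 4-OHT libraries. It did not pass the test in either difference (0.12, interval -0.01 to 0.26, and 0.12, interval -0.02 to 0.25).

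Among the 11 regulators and markers of the integrated stress response, Cebpb was the member that rose most in induced cells. Against ethanol 4 of the 11 rose and 1 fell, with a median of 0.04 (all genes, 21.1% and 17.2%). Cebpb (chromosome 2, 167688915 to 167690418), for the bZIP factor C/EBP beta, stood at 84.7 and 75.8 CPM when induced, 54.3 and 46.8 with ethanol and 54.8 and 46.1 untreated. Without Cre the libraries were at 35.03 and 36.5 untreated, 44.2 and 46.8 with ethanol and 38.4 and 41.4 with 4-OHT. Both induced libraries were far above the other 10. The rise was 0.67 (1.59-fold, SE 0.0727, adjusted p = 3.69e-07) against ethanol and 0.66 against untreated cells, and the differences were 0.86 (adjusted p = 6.11e-06) and 0.50 (adjusted p = 0.00199). Exons of Tmem189 overlap those of Cebpb by 312 bases on the opposite strand; it rose by 0.25 (adjusted p = 0.00289), from a mean of 29.99 CPM over the 12 libraries against 50.4 for Cebpb.

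Atf4 itself, the central factor, was at 336 and 333 CPM when induced, 354 and 331 with ethanol and 335 and 325 untreated, and its change against ethanol was -0.03 (interval -0.12 to 0.05). Ddit3, for the factor CHOP, was at 23.1 and 22.2 CPM when induced, 19.7 and 18.9 with ethanol and 17.4 and 17.7 untreated. It was higher throughout in cells without Cre, at 27.2 and 28.1 untreated, 54.8 and 52.2 with ethanol and 39.7 and 43.6 with 4-OHT. It rose in induced cells by 0.23 against ethanol (adjusted p = 0.01; 0.0862 without library 4 and 0.0903 without library 11) and by 0.37 against untreated cells. Ppp1r15a (chromosome 7, 45522916 to 45526268), for GADD34, which returns eIF2 to its unphosphorylated form, was at 40.9 and 40.6 CPM when induced, 34.96 and 36 with ethanol and 30.4 and 26.9 untreated. Without Cre the values were 38.1 and 36.4 untreated, 51.7 and 46.98 with ethanol and 44.5 and 46.5 with 4-OHT. It rose by 0.20 against ethanol, a call lost without library 3 or 11 (adjusted p = 0.12 and 0.0735), and by 0.50 against untreated cells.

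Atf5, a bZIP factor of the same pathway, rose by 0.21 against ethanol, which was lost without library 3, 4 or 12 (adjusted p = 0.0609 to 0.151). Its exons overlap those of Nup62 by 82 bases on the opposite strand, at 99.6 CPM over the 12 libraries and with a log2 fold change of -0.17. Sesn3, for sestrin 3, an inhibitor of mTORC1, fell by 0.21, which was lost without library 4, 11 or 12 (adjusted p = 0.0587 to 0.27). The other 5 regulators and markers did not pass. Trib3 (chromosome 2, 152337422 to 152344032), for a pseudokinase that feeds back on ATF4 and CHOP, was at 11.2 and 9.96 CPM when induced, 10.9 and 10.9 with ethanol and 12.6 and 12.7 untreated, and changed by -0.04 (interval -0.23 to 0.15). Chac1, for a glutathione-degrading enzyme, changed by 0.04 (interval -0.15 to 0.23). Nor did Vldlr (0.01), for the very low density lipoprotein receptor, Nupr1 (0.08), a stress-induced chromatin protein, or Cebpg (-0.10), a bZIP partner of ATF4.

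The 7 amino acid enzymes did not move in 1 direction in induced cells. Against ethanol 2 rose and 3 fell, with a median of -0.04 (all genes, 21.1% and 17.2%). Shmt2 and Mthfd2, of mitochondrial one-carbon metabolism, and Aldh18a1, which opens proline synthesis, fell. Shmt2 (chromosome 10, 127517123 to 127522444) was at 99.02 and 97.5 CPM when induced, 119 and 121 with ethanol and 123 and 109 untreated, and higher in Cre-negative cells, at 199 and 209 untreated, 257 and 249 with ethanol and 233 and 246 with 4-OHT. The groups of the 2 genotypes did not overlap, and the induced pair was the lowest of all. The log2 fold change was -0.29 against ethanol (SE 0.0485, adjusted p = 6.5e-05) and -0.24 against untreated cells.

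Aldh18a1 (chromosome 19, 40550257 to 40588463) was at 109 and 104 CPM when induced, 129 and 128 with ethanol and 141 and 139 untreated, and at 158 and 161, 210.1 and 198 and 184 and 197 in the Cre-negative untreated, ethanol and 4-OHT libraries. It fell against ethanol (log2 -0.27, adjusted p = 5.19e-05) and against untreated cells (-0.39). Its difference was -0.17 with ethanol as reference, lost without library 3, 4, 6, 10 or 12 (adjusted p = 0.0544 to 0.178), and -0.64 with untreated cells. That of Shmt2 was -0.21, lost without library 4, 6, 10 or 12 (adjusted p = 0.058 to 0.0808), and -0.47. Mthfd2 (chromosome 6, 83305691 to 83325908) was at 103 and 99.7 CPM when induced, 114 and 109.5 with ethanol and 119 and 115 untreated, and at 105 and 102, 121 and 116 and 105 and 109 in the Cre-negative untreated, ethanol and 4-OHT libraries. It fell with 4-OHT against ethanol in both genotypes by nearly the same amount (-0.14 Cre-positive, adjusted p = 0.0927 without library 12, and -0.15 Cre-negative), with a difference of 0.01 (interval -0.12 to 0.13).

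Asns (chromosome 6, 7675169 to 7693254), for asparagine synthetase, was at 129.5 and 129.9 CPM when induced, 121 and 110.4 with ethanol and 132 and 131 untreated. The Cre-negative libraries were at 170.1 and 170.2 untreated, 215 and 212 with ethanol and 187 and 195 with 4-OHT. It rose against ethanol (0.16, adjusted p = 0.00434; 0.124 without library 4) and not against untreated cells (-0.02, interval -0.11 to 0.07). Pycr1, which ends proline synthesis, rose by 0.25, near the threshold (adjusted p = 0.0482; 0.0774 to 0.438 without library 3, 4 or 11). The serine synthesis genes Psat1 (chromosome 19, 15904678 to 15947337) and Phgdh did not pass (-0.04 and 0.02). Psat1 was at 468 and 472 CPM when induced, 498 and 470.4 with ethanol and 514 and 484 untreated, and at 491 and 486, 530.1 and 534 and 527 and 529.7 in the Cre-negative untreated, ethanol and 4-OHT libraries.

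Of the 3 transporter genes 2 rose and 1 fell in induced cells against ethanol, with a median of 0.18 (all genes, 21.1% and 17.2%). Slc7a5 and Slc7a11 code for light chains that import large neutral amino acids and cystine, and each pairs with the heavy chain coded by Slc3a2. Slc7a5 (chromosome 8, 121881150 to 121907694) was at 58.1 and 60.7 CPM when induced, 84.1 and 93.8 with ethanol and 79.4 and 79.7 untreated, and at 86.5 and 97.6, 114 and 113 and 122 and 118 in the Cre-negative untreated, ethanol and 4-OHT libraries. The induced pair was the lowest of all groups, below every other library. It fell against ethanol (log2 -0.58, SE 0.0554, adjusted p = 5.92e-08) and against untreated cells (-0.42), and the differences were -0.67 and -0.80.

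Slc7a11 (chromosome 3, 49892526 to 50443614) was at 37.9 and 36.3 CPM when induced, 28.6 and 27.7 with ethanol and 40 and 39.3 untreated. Its ethanol libraries were thus the low ones in Cre-positive cells. It rose by 0.40 against ethanol (adjusted p = 3.32e-05) and changed by -0.10 against untreated cells (adjusted p = 0.234). Its Cre-negative values were 15.8 and 15.8 untreated, 27.2 and 23.8 with ethanol and 26.3 and 26.5 with 4-OHT. Slc3a2 (chromosome 19, 8706882 to 8723369) was at 253 and 263 CPM when induced, 229.8 and 227 with ethanol and 213 and 205 untreated, and at 153 and 154, 212 and 210.4 and 193 and 195 in the Cre-negative untreated, ethanol and 4-OHT libraries. It rose by 0.18 against ethanol and 0.30 against untreated cells.

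**Figure D2:**
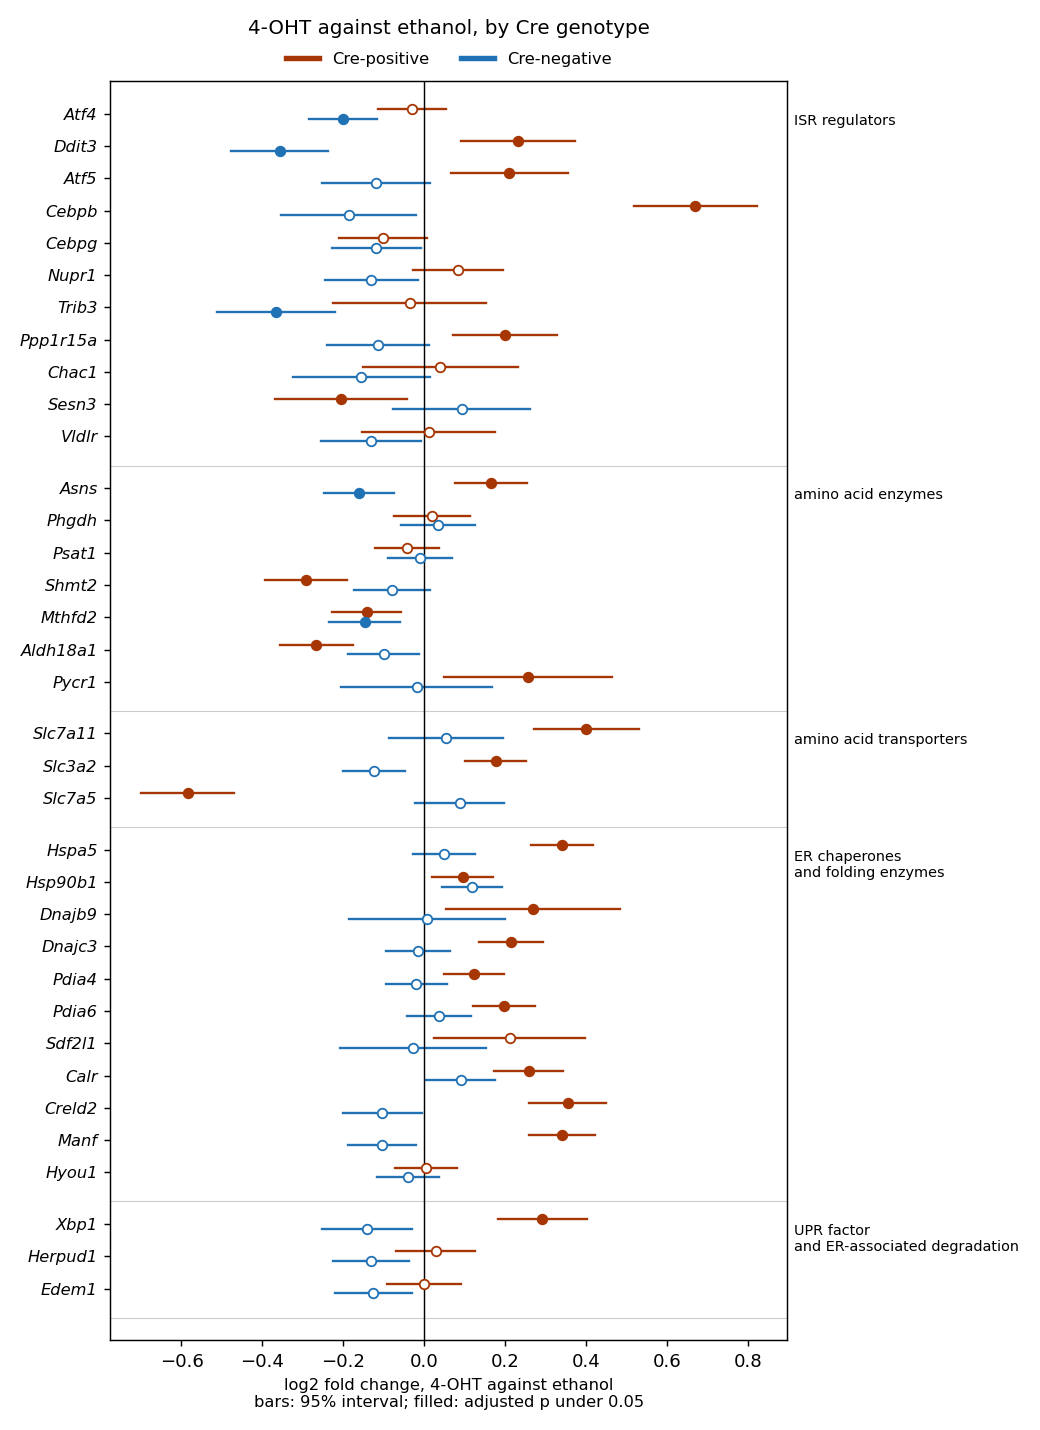
Log2 fold change of all 35 genes for 4-OHT against ethanol, by Cre genotype, with 95% intervals; filled points have an adjusted p under 0.05. ISR is the integrated stress response and UPR the unfolded protein response. In Cre-positive cells 18 genes are filled to the right of 0 and 5 to the left; in Cre-negative cells all 5 filled points lie to the left.

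Without Cre, 4-OHT against ethanol lowered 5 of the 35 genes and 30 did not pass, where 2.65% of all genes fell and 3.33% rose. At an unadjusted p under 0.05 by edgeR, 16 of the 35 were lower and 2 higher, and the median of the 35 was -0.10. The 5 that passed were Trib3 (-0.37), Ddit3 (-0.36), Atf4 (-0.20), Asns (-0.16) and Mthfd2 (-0.15). The call held for Ddit3 in every alternative; without library 5 those of the other 4 were lost (adjusted p = 0.0516 for Atf4, 0.0617 for Trib3, 0.172 for Asns and 0.222 for Mthfd2). Without library 9 they were lost too (0.0575, 0.0557, 0.0912 and 0.199), and without library 10 those of Asns and Mthfd2 (0.0847 and 0.0618). The count was 1 without library 5 or 9 and 3 without library 10.

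Ethanol culture and untreated culture differed most for this programme in the cells without Cre. There, 21 of the 35 genes rose and 2 fell with ethanol, with a median of 0.22, against 12.5% and 12% of all genes and a median of 0. By role, 9 of 11 regulators, 6 of 7 amino acid enzymes and all 3 transporters rose. Of the 11 ER chaperones 2 rose and 2 fell. In Cre-positive cells 2 of the 35 rose and 7 fell, against 8.11% and 6.84% (5 in all without library 8). The mitochondrial share of counts was 1.62% to 1.69% in Cre-negative untreated, 1.90% to 1.95% in ethanol and 2.00% to 2.22% in 4-OHT libraries, and summed adipocyte and cartilage markers were at 79.8 to 87.5, 59.5 to 59.8 and 53.8 to 56.9 CPM. Their part in the result was not tested.

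Trib3 had the widest change: at 18.1 and 18.6 CPM untreated, it was at 39.1 and 35.4 with ethanol and 27.5 and 30.1 with 4-OHT in Cre-negative cells. The ethanol rise was 1.02 (2.02-fold, SE 0.0745, adjusted p = 1.54e-09), and no library of 1 group overlapped another. Vldlr (chromosome 19, 27216484 to 27254231) was at 30.8 and 34.6 CPM in Cre-negative untreated, 63.8 and 64.7 in ethanol and 55.5 and 61.5 in 4-OHT libraries. In Cre-positive cells it was at 19.1 and 18.1, 16.6 and 15.7 and 16.4 and 16.1, lower than in every Cre-negative library. Its rise with ethanol without Cre was 0.97 (adjusted p = 2.48e-10). Ddit3 rose by 0.95, Atf5 by 0.74, Slc7a11 by 0.69, Slc3a2 by 0.46, Ppp1r15a by 0.41, Aldh18a1 by 0.35, Asns by 0.33, Shmt2 by 0.31 and Atf4 by 0.27. Sesn3, Nupr1 and Phgdh did not pass. Of the ER genes Pdia4 rose (0.22) and Hyou1 (0.11, lost without each of libraries 1, 2, 9 and 10, adjusted p = 0.0515 to 0.125), while Hsp90b1 and Calr fell (-0.21 and -0.21).

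**Figure D3:**
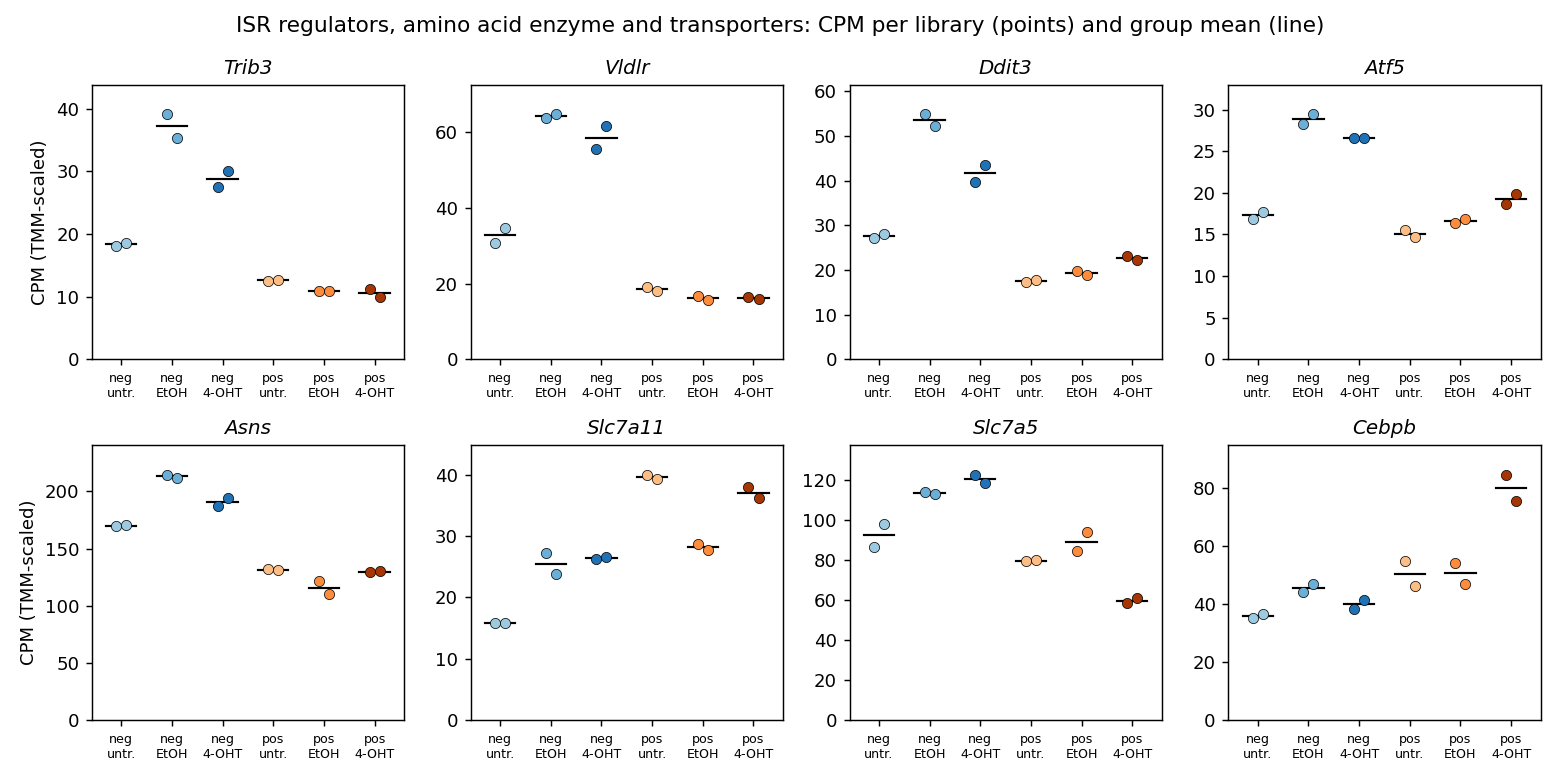
CPM of 8 stress response genes, on a linear axis from 0, in each of the 12 libraries (points) with the mean of the 2 libraries of a group (line); neg and pos are Cre-negative and Cre-positive, untr. untreated, EtOH ethanol. Trib3, Vldlr, Ddit3 and Atf5 are highest in Cre-negative ethanol libraries, Slc7a5 is lowest and Cebpb highest in the induced pair.

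In Cre-positive cells Ppp1r15a (0.30, adjusted p = 0.075 without library 8) and Slc3a2 (0.13, adjusted p = 0.058 to 0.163 without library 3, 4 or 8) rose with ethanol. Slc7a11 (-0.50), Sdf2l1 (-0.46), Herpud1 (-0.31), Nupr1 (-0.24), Xbp1 (-0.23), Asns (-0.19) and Pdia6 (-0.13) fell. The calls of Slc7a11 and Herpud1 held in every alternative. Those of Asns and Xbp1 were lost without library 4 or 7 (adjusted p = 0.0542 to 0.133), that of Sdf2l1 without library 7 (0.0972), that of Nupr1 without library 8 (0.0595) and that of Pdia6 without library 4, 7 or 8 (0.0507 to 0.179).

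The difference of the ethanol effects, Cre-positive minus Cre-negative, was tested after these values had been seen. It was negative for 18 of the 35 genes and did not pass for 17, where it was negative for 7.98% and positive for 8.32% of all genes. It was -1.23 for Trib3 (SE 0.12, adjusted p = 5.97e-07), -1.18 for Slc7a11 (adjusted p = 5.31e-08) and -1.18 for Vldlr (adjusted p = 1.36e-07). It was -0.81 for Ddit3, -0.62 for Herpud1, -0.60 for Atf5, -0.51 for Asns and -0.48 for Aldh18a1. By role it passed for 8 of 11 regulators, 6 of 7 amino acid enzymes and 2 of 3 transporters, and for 1 of 11 ER chaperones (Pdia4, -0.28). Of the 18 calls 11 held in every alternative, and those of Atf4, Cebpb, Chac1, Nupr1, Psat1, Pycr1 and Shmt2 were lost in at least 1. The count fell to 12 without library 7.

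**Figure D4:**
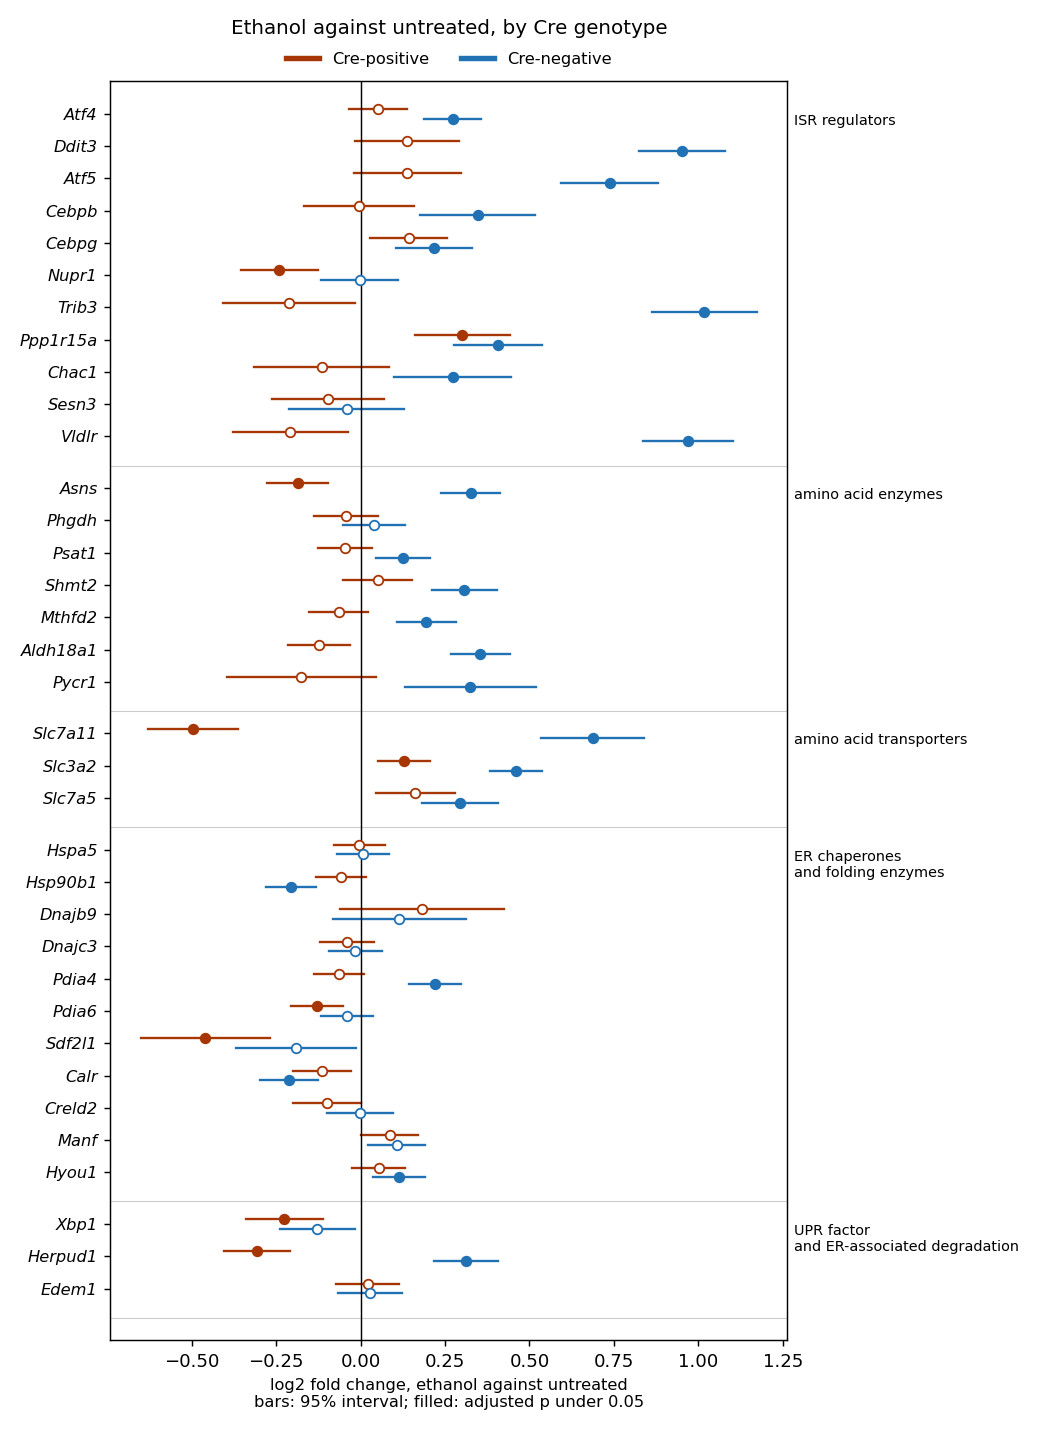
Log2 fold change of all 35 genes for ethanol against untreated, by Cre genotype, with 95% intervals; filled points have an adjusted p under 0.05. ISR is the integrated stress response and UPR the unfolded protein response. In Cre-negative cells the regulators, amino acid enzymes and transporters lie mostly to the right of 0, and the ER chaperones lie on both sides.

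For several stress response genes the difference of the 4-OHT effects had opposite signs by reference. By construction, the value with untreated cells as reference minus that with ethanol is the difference of the ethanol effects given above. With ethanol as reference, 18 of the 35 differences were positive and 3 negative, with a median of 0.20 (all genes, 14.5% and 13.8%). With untreated cells as reference 7 were positive and 11 negative, with a median of -0.06 (all genes, 12% and 11.7%). Trib3 had a difference of 0.33 (adjusted p = 0.0352; 0.078 to 0.224 without library 3, 4, 5, 9 or 11) against ethanol and of -0.90 (adjusted p = 1.22e-05) against untreated cells. Slc7a11 had 0.35 (adjusted p = 0.00725; 0.0724 without library 9) and -0.84 (adjusted p = 1.83e-06). Asns had 0.33 (adjusted p = 0.000323) and -0.19 (adjusted p = 0.0281; 0.0523 to 0.082 without library 6, 7, 11 or 12). Ddit3 had 0.59 and -0.23, of which the second did not pass (adjusted p = 0.0918). Vldlr had 0.14, which did not pass, and -1.03 (adjusted p = 3e-07).

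**Figure D5:**
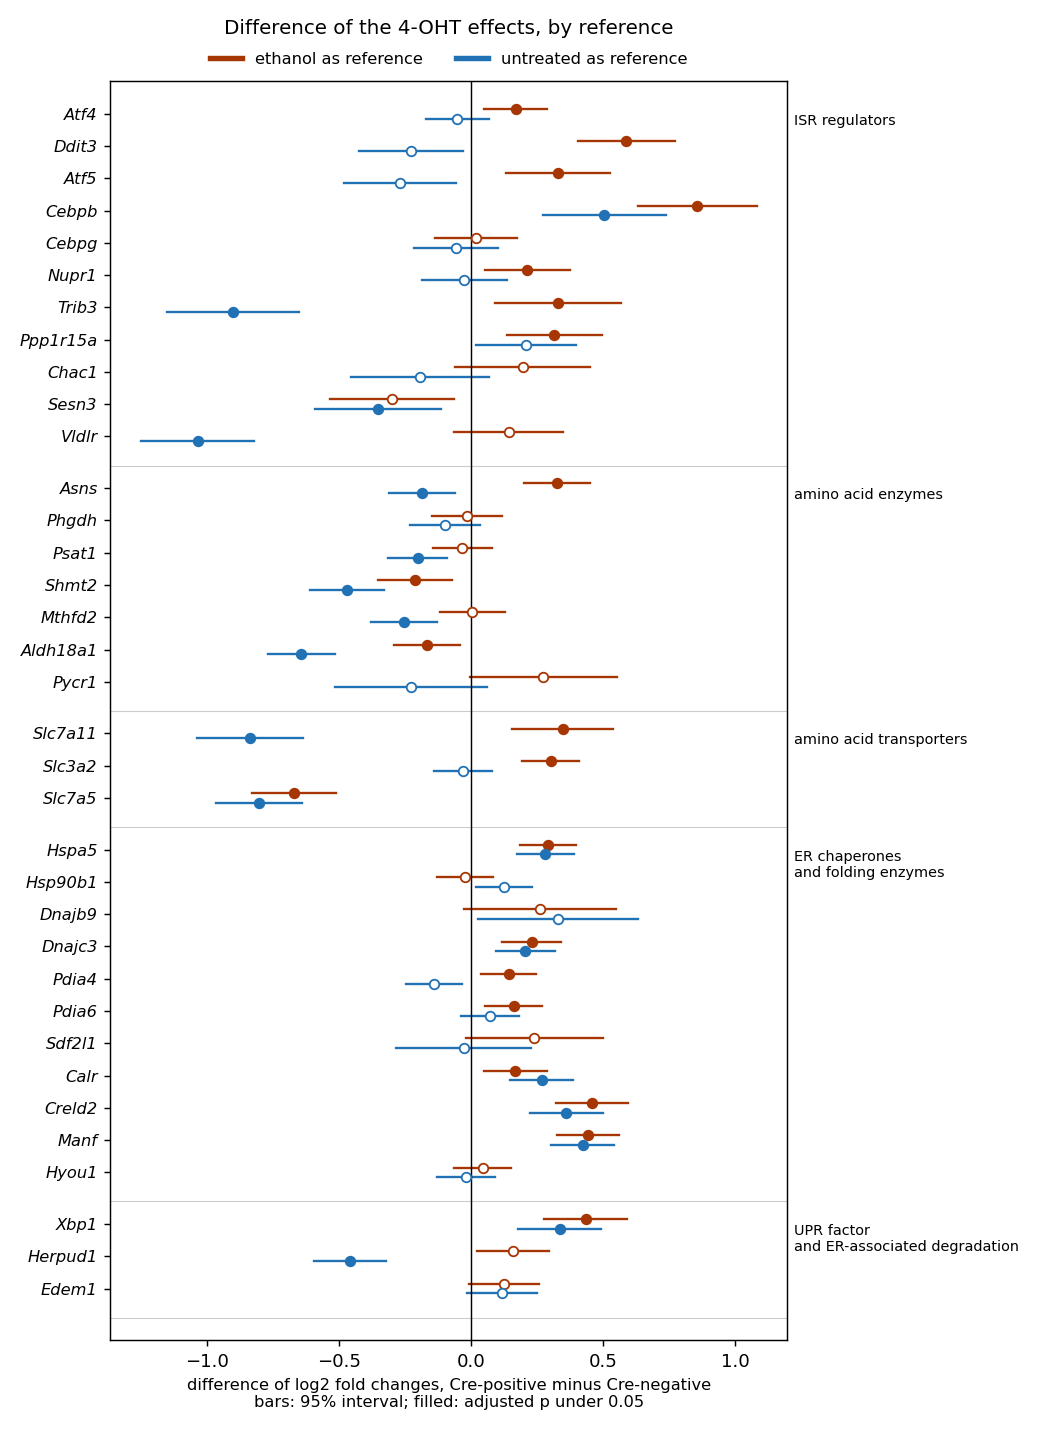
Difference of the 4-OHT effects, Cre-positive minus Cre-negative, for all 35 genes with ethanol or with untreated cells as reference, on the log2 scale with 95% intervals; filled points have an adjusted p under 0.05. ISR is the integrated stress response and UPR the unfolded protein response. Both values are positive and filled for Hspa5, Manf, Creld2, Calr, Dnajc3, Xbp1 and Cebpb and negative and filled for Slc7a5, while those of Trib3, Slc7a11 and Asns lie on opposite sides of 0.

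With 4-OHT against untreated cells, 11 of the 35 genes rose and 9 fell in Cre-positive cells, against 21% and 18.2% of all genes, and 15 rose and 2 fell in Cre-negative cells, against 10.1% and 9.14%. Among the Cre-negative rises were Vldlr (0.84), Slc7a11 (0.74), Trib3 (0.65), Atf5 (0.62) and Ddit3 (0.59). In Cre-positive cells the same genes had -0.20, -0.10, -0.25, 0.35 and 0.37, of which the last 2 rose and Trib3 fell (adjusted p = 0.037; 0.0952 to 0.258 without library 7, 8 or 12).

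The 2 cell populations differed before treatment. In untreated cultures 11 of the 35 genes were higher and 14 lower in Cre-positive than in Cre-negative cells, against 24.4% and 24.6% of all genes. Slc7a11 was 2.51-fold higher (log2 1.33, adjusted p = 7.4e-13), Pdia4 was higher by 0.65, Cebpb by 0.50 and Slc3a2 by 0.45. Dnajb9 (-0.88), Vldlr (-0.82), Shmt2 (-0.81), Ddit3 (-0.66), Trib3 (-0.54) and Chac1 (-0.53) were lower. Hspa5 (0.04, interval -0.04 to 0.11), Creld2 (-0.11) and Hyou1 (0.07) did not pass. Cre genotype and cell origin cannot be told apart here.

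Other genes of the same pathways were counted by list. Of 29 other ER folding and ER-associated degradation genes, 15 rose and 4 fell in induced cells against ethanol, with a median of 0.14, where 21.1% of all genes rose and 17.2% fell. In the difference of the 4-OHT effects 10 were higher and 2 lower with ethanol as reference (all genes, 14.5% and 13.8%), and 10 and 2 with untreated cells (12% and 11.7%). Hspa13 (log2 0.41), Dnajb11 (0.39), an ER Hsp40, Sec11c (0.41), of the signal peptidase, and Ssr1 (0.22), of the translocon-associated complex, had the smallest p. Of 23 other ATF4 targets tested, 6 rose and 8 fell against ethanol (median -0.06), among the latter Mthfd1l (-0.41), Slc7a1 (-0.51), Xpot (-0.28) and Slc1a5 (-0.37). Of these calls 2 rises and 0 falls were at least 1.5-fold, and log2 fold changes over the 23 ran from -0.51 to 1.45. With untreated cells as reference 16 of the 23 differences were negative and 7 did not pass, where 11.7% of all genes were lower. With ethanol as reference 4 were positive, 5 negative and 14 did not pass, with a median of 0.09 (all genes, 14.5% and 13.8%). In Cre-negative cells 16 of the 23 rose with ethanol and 7 did not pass, where 12.5% of all genes rose. Aminoacyl-tRNA synthetases, which ATF4 also drives, gave 1 rise and 4 falls of 12 in induced cells against ethanol, with Cars (-0.33), Eprs (-0.27), Iars (-0.29) and Lars (-0.20) the falls. In Cre-negative cells 11 of the 12 rose with ethanol.

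Of 12 kinases and sensors that open the pathways, 3 rose and 4 fell in induced cells against ethanol, including Eif2ak2 (0.31), for the double-stranded RNA-activated kinase PKR, Eif2ak4 (-0.25), for the amino acid sensor GCN2, Mbtps2 (-0.30), for the site-2 protease that releases ATF6, and Creb3 (0.26). For these lists too the share of all genes was 21.1% for rises and 17.2% for falls. Of 9 genes, the subunits of eIF2 and eIF2B and Ppp1r15b, for a cofactor that dephosphorylates eIF2, 1 rose (Eif2s3x, 0.15) and 1 fell (Eif2b3, -0.47). Of 12 cytosolic heat shock genes tested 4 rose and 1 fell, with Hsph1 (0.43), Cryab (0.95), Hspa1b (0.59) and Hspb1 (0.42) the rises. Without Cre, 4-OHT against ethanol also raised 4 of the 12 and lowered 0, where 3.33% of all genes rose and 2.65% fell. The difference of the 4-OHT effects with ethanol as reference was higher for 4 and lower for 3 (all genes, 14.5% and 13.8%). In Cre-negative cells 10 of these 12 fell with ethanol and 2 did not pass, where 12% of all genes fell. Of 9 mitochondrial chaperones and proteases 2 rose and 3 fell, with Trap1 (-0.67), a mitochondrial Hsp90, the furthest, then Yme1l1 (0.27), Afg3l2 (-0.21) and Hspd1 (-0.14). Of 10 NRF2 targets 4 rose and 1 fell, among them Hmox1 (0.39), Nqo1 (0.16), Gclm (0.17) and Gclc (-0.17).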

How the data were processed

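The authors deposited a single table of expected counts, rounded to whole numbers, for 12 libraries. Per the submitters' processing notes the tools included cutadapt 1.11, RSEM 1.2.30, STAR 2.5.2a and edgeR, and the build was GRCm38; annotation and strand setting are not given there. Counts were analysed with edgeR 4.0.16 in R 4.3.3: filterByExpr, TMM scaling (factors 0.972 to 1.02), 1 mean per group over all 12 libraries, and a quasi-likelihood F test. CPM use TMM-scaled totals. The biological coefficient of variation was 3.44%, with 6 residual degrees of freedom. Between the 2 libraries of a group chi-square values ran from 2.37 to 4.60 per degree of freedom, so none was a copy. Positions come from GENCODE M21 and promoters from RefSeq. Ddit3 matched more than 1 GENCODE gene and has no position. The code was tested on simulated data. Members, lists and tests were chosen with earlier results of these data known. All members may be named; values in every library are given for up to 5 per role, those with the smallest p in 3 comparisons (both differences of the 4-OHT effects, and 4-OHT against ethanol in Cre-positive cells), and up to 4 genes of each other list. Alternatives were DESeq2 1.42.0, RLE factors, no filter on low counts, only the compared groups, and leaving out each library in turn, where the lone library is assumed to vary like the other groups.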

Additional observations from a re-analysis of the deposited data

Results flagged for a closer look

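The effect of 4-OHT, as a log2 fold change, differed between Cre-positive and Cre-negative cells by edgeR's interaction test for 21 of the 35 genes with ethanol as reference, where 14.5% of all genes were higher and 13.8% lower. The differences, Cre-positive minus Cre-negative, were for regulators Atf4 (0.17), Ddit3 (0.59), Atf5 (0.33), Cebpb (0.86), Nupr1 (0.21), Trib3 (0.33) and Ppp1r15a (0.31). Of these regulators, Atf4 and Trib3 did not pass in Cre-positive cells (-0.03 and -0.04) and fell in Cre-negative cells (-0.20 and -0.37). Nupr1 passed in neither (0.08 and -0.13), and the others rose in Cre-positive cells. For amino acid enzymes and transporters the differences were Asns (0.33), Shmt2 (-0.21), Aldh18a1 (-0.17), Slc7a11 (0.35), Slc3a2 (0.30) and Slc7a5 (-0.67). For ER genes they were Hspa5 (0.29), Dnajc3 (0.23), Pdia4 (0.14), Pdia6 (0.16), Calr (0.17), Creld2 (0.46), Manf (0.44) and Xbp1 (0.43). Of these calls 10 held in every alternative and 11 were lost in at least 1. Beside Calr, Trib3, Slc7a11, Shmt2 and Aldh18a1, given above, they were lost for Pdia4 (adjusted p = 0.0586 to 0.182) and Pdia6 (0.0584 to 0.106) without library 4, 5, 6, 9, 10, 11 or 12. Those of Atf4 were lost without library 4, 5, 6, 9, 11 or 12 (0.0514 to 0.173), of Nupr1 without library 3, 4, 5, 9, 10 or 11 (0.0667 to 0.208), of Atf5 without library 10 or 12 (0.067 and 0.0567) and of Ppp1r15a without library 9 (0.0731).

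The same difference passed for 18 genes with untreated cells as reference, where 12% of all genes were higher and 11.7% lower. The differences, Cre-positive minus Cre-negative, were for regulators Cebpb (0.50), Trib3 (-0.90), Sesn3 (-0.35) and Vldlr (-1.03). For amino acid enzymes and transporters they were Asns (-0.19), Psat1 (-0.20), Shmt2 (-0.47), Mthfd2 (-0.25), Aldh18a1 (-0.64), Slc7a11 (-0.84) and Slc7a5 (-0.80). For ER genes they were Hspa5 (0.28), Dnajc3 (0.21), Calr (0.27), Creld2 (0.36), Manf (0.42), Xbp1 (0.34) and Herpud1 (-0.46). Of these calls 15 held in every alternative. Beside Asns and Dnajc3, given above, that of Sesn3 was lost without library 1, 5, 6, 8 or 11 (adjusted p = 0.0516 to 0.199).

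The response itself differed between the cells for 18 genes for ethanol against untreated cultures, a test added after seeing the data, where 8.32% of all genes were higher and 7.98% lower. The differences, Cre-positive minus Cre-negative, were for regulators Atf4 (-0.22), Ddit3 (-0.81), Atf5 (-0.60), Cebpb (-0.35), Nupr1 (-0.24), Trib3 (-1.23), Chac1 (-0.39) and Vldlr (-1.18). For amino acid enzymes and transporters they were Asns (-0.51), Psat1 (-0.17), Shmt2 (-0.26), Mthfd2 (-0.26), Aldh18a1 (-0.48), Pycr1 (-0.50), Slc7a11 (-1.18) and Slc3a2 (-0.33). For ER genes they were Pdia4 (-0.28) and Herpud1 (-0.62). The call was lost for Atf4 without library 4 (adjusted p = 0.0615), Shmt2 without library 7 (0.105), Cebpb without library 1, 2, 4, 7 or 10 (0.0635 to 0.249) and Chac1 without library 1, 4, 7, 8, 9 or 10 (0.0682 to 0.219). It was also lost for Nupr1 without library 2, 4, 7, 8, 9 or 10 (0.0569 to 0.166), Psat1 without library 2, 4, 7 or 10 (0.0833 to 0.152) and Pycr1 without library 2, 4, 7 or 9 (0.0536 to 0.129). The first and the second share the 4-OHT libraries, and the last equals the second minus the first by construction. The last is therefore not a separate result. The cells of the 2 genotypes differed before treatment, and Cre and cell origin cannot be told apart.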

How the results depend on the processing

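No paired analysis was possible because the labels number the libraries 1 to 12 and groups share no replicate number. Of 3220 values of single genes under the alternatives, 2932 kept their side of the threshold, 249 lost the call and 39 gained it. The sign changed for 105, of which 0 were called in either fit. Genes called for 4-OHT against ethanol in Cre-negative cells went from 5 to 10 with only the compared groups in the fit, and to 1 to 4 when each library was left out. Leaving out each library gave 16 to 18 called genes, from 23, for 4-OHT against ethanol in Cre-positive cells. It gave 13 to 19, from 21, for the difference with ethanol as reference, and 5 to 9, from 9, for ethanol against untreated in Cre-positive cells. DESeq2 called 16 for 4-OHT against ethanol in Cre-positive cells. Fits without a library use fewer samples; otherwise the cause was not tested. With 2 libraries a group, 13 of the 23 calls and 10 of the 21 held in every alternative.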
